A study of Mus musculus with 24 samples.

Results

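The transcripts described here are 31 genes of stroma and extracellular matrix, measured by RNA-seq in mouse bone marrow derived macrophages. They were taken by symbol from the 52636 gene models of the deposited tables, and the symbols were chosen by earlier results on the same libraries, namely the difference between knockout and wild-type cells and the spread between libraries. Macrophages grown from bone marrow can carry traces of the stromal cells of the marrow, and some matrix genes are made by macrophages themselves. The series holds 24 libraries of polyadenylated RNA in 4 groups of 6: wild-type (C57BL/6) cells in media, Ninj1 knockout cells in media, wild-type cells with Pam3 and knockout cells with Pam3. Ninj1 encodes ninjurin-1, a membrane protein known for rupturing the plasma membrane of dying cells. Pam3 is the name the labels give the stimulus, and lipopeptides of that name are agonists of Toll-like receptors. The sources used here state neither its dose nor its duration, and neither the age of the mice nor the design of the knockout allele or its strain background. All groups were primary cultures from the marrow of C57BL/6 or Ninj1 knockout mice. It is not stated if a group's 6 libraries are separate mice, cultures or repeats of one, so the p-values below measure only the spread between these libraries, which may be technical. The replicate numbers only name the libraries.

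The extracellular matrix is a network of fibrillar collagens, basement membrane collagens, glycoproteins and proteoglycans that is laid down mainly by fibroblasts and related stromal cells. Matrix metalloproteinases cut it, and tissue inhibitors of metalloproteinases hold those enzymes in check. Macrophages take part in both: they secrete proteases and their inhibitors, and they are not known as a main source of type I collagen.

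Library totals lay between 31.3 and 40.7, in units of 1e6 counted reads, and levels are given as CPM, counts scaled to a normalised library of 1e6 reads. Ninj1 lay between 151 and 179 CPM in knockout libraries in media against 289 to 325 in wild type, and between 409 and 479 against 646 to 1145 after Pam3, so every knockout library was below every wild-type library of the same treatment. Reads on the gene remained in the knockout, and the counts per gene do not show which exons they came from. The wild-type mice were labelled male, whereas Xist, the X-inactivation transcript, lay between 233 and 796 CPM in all 24 libraries and the Y-linked genes Kdm5d, Eif2s3y, Uty and Ddx3y held 0, 0, 1 and 27 reads over the series. Wild-type Pam3 library 5 stood apart from its group, with 12.2% of its reads on its 10 most abundant genes against a group median of 9.56%. The 12 macrophage markers examined (among them Csf1r, Adgre1 and Lyz2) summed to between 30246 and 45612 CPM, and each was detected in every library.

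Of the 31 members, 30 passed the filter on low counts and were tested among 14435 genes. Thy1, a surface protein of fibroblasts and T cells, did not pass: it held between 1 and 12 reads per library. Lum, on 1 to 19 reads per library, and Has1 passed through the Pam3 groups, where both were higher. Compared per length, as the authors' size-factor-adjusted RPKM, the members in wild-type cells in media were led by Timp2 at a median of 225 RPKM, with a range of 218 to 235. Bgn followed at 4.49 RPKM, Fn1 at 2.66, Sparc at 2.41 and Col1a2 at 2.08, and the ranges of the neighbours Fn1 and Sparc overlapped, as did those of Sparc and Col1a2. After Pam3 the order began with Mmp14 at a median of 299 RPKM in wild-type cells (range 293 to 309), then Timp2 at 81.8, Timp1 at 15.7 and Pdgfrb at 14.1. The ranges of Timp1 (14.5 to 24.3) and Pdgfrb (10.5 to 15.8) overlapped, and those of Mmp14 and Timp2 did not. In knockout cells the same 4 genes led after Pam3, with medians of 295, 67.6, 18.5 and 16.5 RPKM. Most members were rare transcripts: in wild-type cells in media 23 of the 31 had a median under 1 RPKM.

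With Pam3, the members that rose included a hyaluronan synthase, enzymes that cut the matrix, inhibitors of those enzymes, a growth factor receptor and a basement membrane collagen chain. In wild-type cells 10 members rose and 4 fell, against 40.6% of all tested genes higher and 44.2% lower. In knockout cells 10 rose and 8 fell, against 40.2% of all genes higher and 44.8% lower. As a share of the 30 members tested, 46.7% changed in wild-type cells and 60.0% in knockout cells, where 84.8% and 85.0% of all tested genes did. The median log2 fold change of the members was 0.06 in wild-type and -0.08 in knockout cells, beside -0.05 and -0.07 over all genes. These counts depend on the scaling: with library size alone, which shifted the fold change of all genes by a median of -0.52 in wild-type and -0.48 in knockout cells, 8 members were called higher and 16 lower in wild-type cells, beside 24.8% and 62.7% of all genes, and 7 higher and 18 lower in knockout cells, beside 25.5% and 61.9%. Without knockout media libraries 4 and 6, which were high for most members, 13 members rose and 3 fell in knockout cells. Of all genes 39.2% were called higher and 43.4% lower in that fit. Col4a1, Col6a1 and Loxl2 were added to the members that rose. The 2 Pam3 comparisons share no library but come from one fit with a shared estimate of the spread. The same 10 symbols rose in both: Mmp14, Mmp2, Has1, Timp1, Timp3, Pdgfrb, Col4a2, Fbn1, Dcn and Lum. Has1 and Lum are in both counts although they passed the filter through the Pam3 groups. How many of all genes rose in both genotypes was not counted, so nothing is read from the shared symbols.

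**Figure D1:**
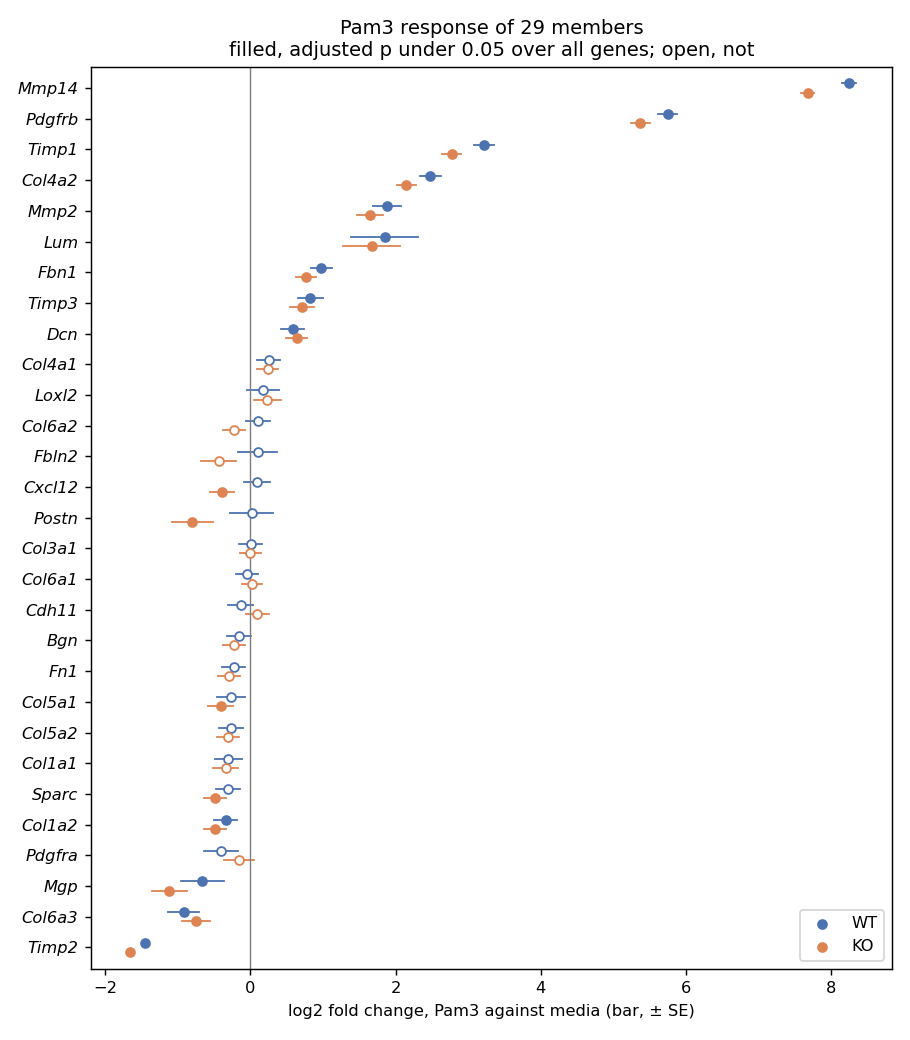
The log2 fold change of 29 members between Pam3 and media (horizontal axis, bars ± SE), with wild-type cells in blue and knockout cells in orange and filled points for an adjusted p under 0.05 over all tested genes. Has1 is left out because it held 0 reads in wild-type cells in media. Mmp14 stands at 8.24 and 7.67, and most collagens lie near 0.

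Mmp14 encodes a membrane-anchored collagenase that also activates the proenzyme of Mmp2. It lay between 4.06 and 4.91 CPM in the 6 wild-type libraries in media, with a median of 4.56, and between 1348 and 1422 after Pam3, with a median of 1378. In knockout cells it lay between 5.13 and 8.61 CPM in media, with a median of 6.15, and between 1292 and 1393 after Pam3, with a median of 1354. The treated and untreated libraries were separated by a wide gap in both genotypes, and within the Pam3 groups the libraries were close together. The increase was 303-fold in wild-type cells (log2 8.24, SE 0.09, adjusted p = 1.06e-30) and 204-fold in knockout cells (log2 7.67, SE 0.09, adjusted p = 2.59e-30). Mmp2, a gelatinase that cuts type IV collagen, rose from a median of 0.711 CPM (0.536 to 1.13) to 2.95 (2.30 to 3.68) in wild-type cells, a log2 fold change of 1.88 (SE 0.19, adjusted p = 5.81e-10). The knockout value was 1.64 (SE 0.18, adjusted p = 2.50e-09), and in neither genotype did treated and untreated libraries overlap. Loxl2, a lysyl oxidase that cross-links collagen, did not pass the test in either genotype, with log2 fold changes of 0.17 (SE 0.22) and 0.23 (SE 0.19).

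Has1, a hyaluronan synthase of the plasma membrane, went from no reads to a clear signal. It held 0 reads over the 6 wild-type libraries in media and 1 read over the 6 knockout libraries in media. After Pam3 it lay between 2.10 and 4.72 CPM in wild-type cells, with 64 to 139 reads per library, and between 5.36 and 6.37 CPM in knockout cells, with 164 to 207 reads. Against a floor of 3 reads over the untreated wild-type group the pooled level was at least 282-fold higher. In knockout cells the ratio was 1475, with an interval of 265 to 58265 that covers counting error only. Has1 is counted among the members that rose, but it entered the test through the Pam3 groups, so no p is given.

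The inhibitors of metalloproteinases moved in opposite directions. Timp1 rose from a median of 1.87 CPM (1.31 to 2.01) to 15.3 (14.1 to 23.9) in wild-type cells, where its highest treated value was that of library 5. In knockout cells it rose from 2.54 CPM (1.98 to 3.46) to 18.1 (15.8 to 19.0). All treated libraries were above all untreated ones, and the log2 fold changes were 3.21 (SE 0.13, adjusted p = 3.02e-18) and 2.77 (SE 0.13, adjusted p = 2.43e-17). Timp2, which also takes part in the activation of the Mmp2 proenzyme by Mmp14, fell from a median of 937 CPM (915 to 969) to 333 (323 to 391) in wild-type cells. In knockout cells it fell from 866 CPM (842 to 896) to 277 (257 to 296), again with no overlap. Its log2 fold changes were -1.46 (SE 0.04, adjusted p = 5.50e-22) and -1.65 (SE 0.04, adjusted p = 3.53e-23). Timp3, an inhibitor that binds to the matrix, rose less, from a median of 4.56 CPM to 8.27 in wild-type cells (log2 0.82, SE 0.17, adjusted p = 0.000107) and from 6.07 to 10.5 in knockout cells (log2 0.71, SE 0.16, adjusted p = 0.000310). With library size alone these were 0.30 and 0.22 and did not pass. Its exons share 1733 bases with those of Syn3 on the other strand, and the library kit does not mark strand, so reads of the shared bases cannot be told apart.

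**Figure D2:**
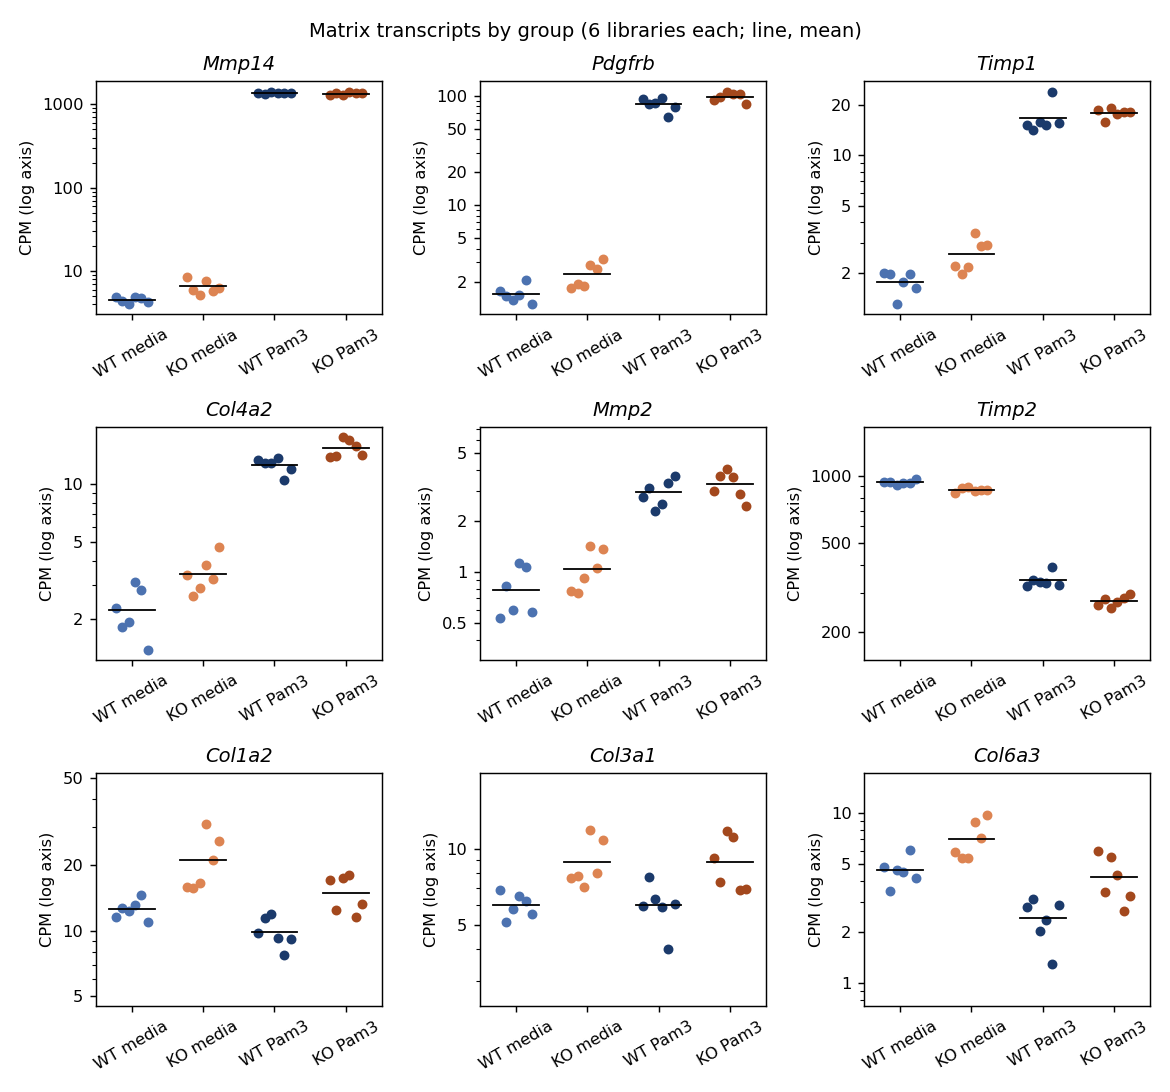
Levels of 9 members in CPM on log axes, with a point for each of the 6 libraries of a group and a line at the group mean. Mmp14, Pdgfrb, Timp1, Col4a2 and Mmp2 were higher in all Pam3 libraries than in all media libraries of the same genotype and Timp2 lower, while Col1a2 and Col3a1 overlapped between treatments.

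The upstream sequences shown are those of the members with the largest increases among those with a promoter window. That of Col3a1, a collagen that did not pass the test, is set beside them. They are the stretches beside the start sites of transcripts that behaved differently. RefSeq (GRCm38.p6) had promoter windows for 20 of the 31 members, 22 windows in all. Pdgfrb, which rose more than Timp1, had none. The printed sequences end at the base before the annotated start, except that of Has1, which ends 18 bases before it. Each runs 5′ to 3′ on the strand of the gene and leaves out annotated exons. Capitals mark matches on either strand to the GC box GGGCGG or the TATA box TATAAA. They stand for chr14:54431348-54431597 (plus strand) for Mmp14, chrX:20869916-20870165 (plus strand) for Timp1, chr17:17855206-17855438 (minus strand) for Has1 and chr1:45311288-45311537 (plus strand) for Col3a1.
Mmp14: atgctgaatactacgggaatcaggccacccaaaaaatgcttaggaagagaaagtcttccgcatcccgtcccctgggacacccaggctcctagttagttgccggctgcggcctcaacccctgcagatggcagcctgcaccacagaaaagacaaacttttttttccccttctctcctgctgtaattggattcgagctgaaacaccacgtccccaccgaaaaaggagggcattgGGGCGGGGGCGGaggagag
Timp1: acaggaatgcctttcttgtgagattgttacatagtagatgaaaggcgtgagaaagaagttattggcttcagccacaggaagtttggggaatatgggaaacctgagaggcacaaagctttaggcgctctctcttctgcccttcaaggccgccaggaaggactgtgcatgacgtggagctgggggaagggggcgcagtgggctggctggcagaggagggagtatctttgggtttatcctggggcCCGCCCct
Has1: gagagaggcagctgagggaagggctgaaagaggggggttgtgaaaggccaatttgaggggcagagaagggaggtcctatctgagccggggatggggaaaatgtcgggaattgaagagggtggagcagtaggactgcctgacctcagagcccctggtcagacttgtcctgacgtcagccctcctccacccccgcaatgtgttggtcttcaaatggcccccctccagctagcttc
Col3a1: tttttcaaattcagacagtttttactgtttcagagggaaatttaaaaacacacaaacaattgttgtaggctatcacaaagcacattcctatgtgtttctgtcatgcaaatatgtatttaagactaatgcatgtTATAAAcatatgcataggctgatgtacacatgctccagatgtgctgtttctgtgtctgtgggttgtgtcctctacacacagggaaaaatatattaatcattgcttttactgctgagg
In the 250 bases before the start, the Mmp14 window held the GC box 2 times side by side, with first bases 19 and 13 bases before the start, and the Timp1 window held it once, 8 bases before the start on the other strand. The Col3a1 window held TATAAA 117 bases before the start. Over all 32851 windows of the same length the GC box was found in 32.7% and TATAAA in 12.4%, and among the 22 member windows in 13 and 2 (Col3a1 and Postn). A 10-letter NF-kB motif was in none of the member windows and in 1.21% of all windows, and the AP-1 motif TGANTCA was in 1 (Col6a1) and in 6.75%. A match is a description of letters, and a missing match says only that these letters are not in this window.

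The basement membrane collagens Col4a1 and Col4a2 encode the chains of the most common type IV collagen and lie head to head on chromosome 8, and of the pair Col4a2 alone passed the test. Col4a2 rose from a median of 2.10 CPM (1.39 to 3.11) to 12.9 (10.5 to 13.5) in wild-type cells and from 3.31 (2.63 to 4.73) to 14.9 (13.7 to 17.4) in knockout cells. Treated and untreated libraries did not overlap, and the log2 fold changes were 2.48 (SE 0.14, adjusted p = 2.64e-15) and 2.15 (SE 0.13, adjusted p = 1.49e-14). Col4a1 lay at a median of 3.83 CPM in media and 4.83 after Pam3 in wild-type cells, and at 5.29 and 6.68 in knockout cells. Its treated and untreated libraries overlapped, and its log2 fold changes of 0.25 (SE 0.16, adjusted p = 0.142) and 0.24 (SE 0.14, adjusted p = 0.122) did not pass. Col4a1 was called higher in wild-type cells without wild-type Pam3 library 5, and in knockout cells without knockout media library 4, library 6 or both (0.49 without both). The difference between the fold changes of the chains was not tested. Annotated exons of the genes overlap by 22 bases, chr8:11312805-11312826, shown here on the plus strand because reads from it cannot be assigned to a strand.
Col4a1 and Col4a2: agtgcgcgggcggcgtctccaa

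Pdgfrb, the receptor for platelet-derived growth factor B that is best known from pericytes and fibroblasts, rose with Pam3 to a level far above that of the other surface proteins. It lay between 1.25 and 2.07 CPM in wild-type cells in media and at a median of 84.9 after Pam3, with a lowest value of 64.0 in library 5, a 53.7-fold increase (log2 5.75, SE 0.13, adjusted p = 4.80e-24). In knockout cells it rose from 2.25 CPM (1.75 to 3.25) to 99.8 (85.0 to 109), a 41.3-fold increase (log2 5.37, SE 0.13, adjusted p = 7.68e-24). Pdgfra, its partner receptor on mesenchymal cells, stayed between 0.977 and 4.26 CPM in all groups, and its log2 fold changes of -0.41 (SE 0.23) and -0.16 (SE 0.20) did not pass. Cdh11, a cadherin of mesenchymal cells, had log2 fold changes of -0.13 (SE 0.18) and 0.10 (SE 0.16), which did not pass either. Cxcl12, the chemokine by which marrow stroma retains blood stem cells, had a log2 fold change of 0.09 (SE 0.17) in wild-type cells, which did not pass, and -0.39 (SE 0.16, adjusted p = 0.0260) in knockout cells, which passed. Without knockout media libraries 4 and 6 the latter was -0.13 and did not pass.

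The fibrillar collagens, which bear tension in connective tissue, changed little with Pam3. Col1a1 and Col1a2 encode the chains of type I collagen, Col3a1 that of type III, and Col5a1 and Col5a2 chains of type V, which starts fibrils. Col1a2 lay at a median of 12.5 CPM (11.0 to 14.5) in wild-type cells in media and 9.51 after Pam3, with a lowest value of 7.74 in library 5, and the groups overlapped. In wild-type cells it fell by 0.34 on the log2 scale (SE 0.16, adjusted p = 0.0432), a call lost on leaving out any one of 7 libraries, and -0.49 (SE 0.15, adjusted p = 0.00334) in knockout cells, where it was -0.21 and not called without knockout media libraries 4 and 6. Col3a1 had a median of 5.96 CPM in media and 5.98 after Pam3 in wild-type cells, with log2 fold changes of 0.00 (SE 0.16) and -0.00 (SE 0.15). Col1a1 and Col5a2 did not pass in either genotype, with log2 fold changes of -0.30 and -0.27 in wild-type and -0.34 and -0.31 in knockout cells. Col5a1 passed in knockout cells alone, at -0.41 (SE 0.17, adjusted p = 0.0327) beside -0.27 (SE 0.20) in wild-type cells, and that call was also lost without knockout media libraries 4 and 6.

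Of the type VI collagen chains, which form beaded filaments around cells, Col6a3 fell and the others did not pass. Col6a3 lay at a median of 4.56 CPM (3.51 to 6.11) in wild-type cells in media and 2.58 (1.30 to 3.13) after Pam3, without overlap, a log2 fold change of -0.92 (SE 0.21, adjusted p = 0.000291). In knockout cells it went from 6.53 CPM (5.43 to 9.77) to 3.88 (2.65 to 6.03), with overlap, a log2 fold change of -0.75 (SE 0.19, adjusted p = 0.000670). Col6a1 had log2 fold changes of -0.05 (SE 0.15) and 0.03 (SE 0.14), and Col6a2 of 0.11 (SE 0.16) and -0.22 (SE 0.15).

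The small leucine-rich proteoglycans, which bind collagen fibrils and set their width, differed in their calls. Dcn (decorin) rose from a median of 3.42 CPM (2.20 to 3.73) to 5.05 (3.76 to 5.40) in wild-type cells, a log2 fold change of 0.58 (SE 0.16, adjusted p = 0.00168), and by 0.63 (SE 0.15, adjusted p = 0.000285) in knockout cells. With library size alone these were 0.06 and 0.15 and did not pass. Lum (lumican) was called higher in both genotypes, at log2 1.85 (SE 0.46) and 1.67 (SE 0.39), on 1 to 19 reads per library. It is counted among the members that rose, but it entered the test through the Pam3 groups, so no p is given. Bgn (biglycan), the most abundant of the 3, had log2 fold changes of -0.16 (SE 0.16) and -0.23 (SE 0.16) and did not pass.

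Among the glycoproteins and matricellular proteins, Fbn1 (fibrillin-1, the core of microfibrils) rose from a median of 2.21 CPM (1.76 to 2.75) to 4.78 (2.57 to 5.08) in wild-type cells, where library 5 was the single treated library to overlap the untreated ones. Its log2 fold changes were 0.98 (SE 0.14, adjusted p = 6.10e-07) and 0.76 (SE 0.14, adjusted p = 1.22e-05), and with library size alone the knockout value was 0.28 and did not pass. Its exons share 2442 bases with Gm9913 on the other strand. Mgp, an inhibitor of calcification, fell by 0.67 (SE 0.30, adjusted p = 0.0402) on the log2 scale in wild-type cells, a call lost on leaving out any one of 6 libraries, and by 1.12 (SE 0.25, adjusted p = 0.000169) in knockout cells. Sparc, a collagen-binding protein, and Postn (periostin) passed in knockout cells alone, at -0.49 (SE 0.15, adjusted p = 0.00446) and -0.80 (SE 0.28, adjusted p = 0.0104), beside -0.31 (SE 0.16) and 0.02 (SE 0.30) in wild-type cells. Both calls were lost without knockout media libraries 4 and 6. Fn1 (fibronectin, which links matrix to integrins) and Fbln2 (fibulin-2) did not pass in either genotype, with log2 fold changes of -0.23 and -0.29 for Fn1 and 0.10 and -0.44 for Fbln2.

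Other genes of the matrix and its turnover were examined as 6 lists of 134 genes in all, of which 107 were tested. In wild-type cells 39 rose and 51 fell with Pam3, and in knockout cells 40 rose and 50 fell, a share of 84.1% in both, near that of all genes. Collagen processing enzymes held 9 higher and 5 lower of 19 in wild-type cells, among them Lox, which cross-links collagen and elastin (5.39 ± 0.342 CPM in media, 317 ± 57.1 after Pam3; SD, 6 libraries), and Bmp1, a procollagen protease (log2 4.98, SE 0.12, adjusted p = 5.46e-24). Other proteases and inhibitors held 10 higher and 12 lower of 25, with Mmp13 at log2 5.94 (SE 0.12, adjusted p = 4.25e-25) and Mmp9 at 4.63 (SE 0.09, adjusted p = 9.66e-26) beside the Mmp14 and Mmp2 values above, and Adam8 at -2.11 (SE 0.04, adjusted p = 3.25e-26). Other collagen chains held 5 higher and 6 lower of 13, among them Col18a1 at log2 1.62 (SE 0.05, adjusted p = 1.44e-20) and Col27a1. The latter lay at 0.212 ± 0.0193 CPM in media and 22.6 ± 2.63 after Pam3 (SD, 6 libraries), log2 6.72 (SE 0.14). At that low level in media it may have passed the filter through the Pam3 groups, so no p is given. Laminins, nidogens and perlecan held 2 higher and 7 lower of 10, with Lama3 at -5.11 (SE 0.13, adjusted p = 3.30e-23) and Agrn at 2.93 (SE 0.11, adjusted p = 6.51e-19). Other glycoproteins and proteoglycans held 5 higher and 11 lower of 20, and receptors and hyaluronan genes 8 higher and 10 lower of 20, the latter with Hyal1, a hyaluronidase, at -3.93 (SE 0.07, adjusted p = 4.48e-26). The median log2 fold change over the 107 genes was -0.28 in wild-type and -0.37 in knockout cells.

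The values that follow, of genotype and of the spread between libraries, are those by which the members were chosen, and are given as descriptions. The calls are counted only to set them beside those of all genes, and nothing is read from them. In media 14 members were called higher in knockout cells and 0 lower, where 1.92% of all genes were called higher and 1.12% lower. By DESeq2 18 were called higher and 0 lower, beside 2.74% and 2.02% of all genes. At an unadjusted p under 0.05 in edgeR's test 25 were higher and 1, Timp2, lower. The share of all genes at that unadjusted threshold was not computed, here or below, so this count has nothing to be set beside. The median log2 difference over the 30 members was 0.61, and 29 of 30 were positive. The 14 were Col1a1, Col1a2, Col3a1, Col5a1, Col4a1, Col4a2, Col6a1, Col6a2, Bgn, Sparc, Mgp, Mmp14, Pdgfrb and Cxcl12. Of these, 5 had all knockout libraries above all wild-type ones (Col1a2, Col3a1, Col5a1, Col4a1 and Mmp14), and the groups of the other 9 overlapped. How many of all genes were separated in this way was not counted. Col1a2 lay between 11.0 and 14.5 CPM in the 6 wild-type libraries, with a median of 12.5, and between 15.8 and 30.9 in the 6 knockout libraries, with a median of 18.8. The groups did not overlap, and the log2 difference was 0.75 (SE 0.15). Col3a1 lay between 5.10 and 6.88 CPM in wild-type and between 7.02 and 11.8 in knockout libraries, a log2 difference of 0.57 (SE 0.15). Mgp had medians of 0.624 and 1.32 CPM, and its groups overlapped. Mmp14 had one of 0.54 (SE 0.09) and groups that did not overlap.

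The difference in media leaned on a few libraries. Without knockout media libraries 4 and 6 it was called for 1 member, Mmp14, at a log2 difference of 0.49. Of all genes 1.04% were called higher and 0.41% lower in that fit. The median over the members was 0.36, with 29 of 30 still positive. These libraries were the highest of their group for Col1a1, Col1a2 and Col3a1 summed, so leaving them out lowers such differences by itself. Leaving out 1 library at a time gave between 3 and 23 members called higher: 3 without knockout media library 4, 4 without knockout media library 6, 3, 6 and 7 without wild-type media libraries 3, 6 and 2, and 23 without wild-type Pam3 library 5. The last also raised the calls over all genes, to 4.52% higher and 4.23% lower. Without knockout media library 4 or 6, 1.4% of all genes were called higher. Without wild-type media libraries 3, 6 and 2 the shares were 1.06%, 1.33% and 1.49%. Fitted on the media libraries alone, 21 members were called higher and 1 lower, beside 4.17% and 3.81% of all genes.

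**Figure D3:**
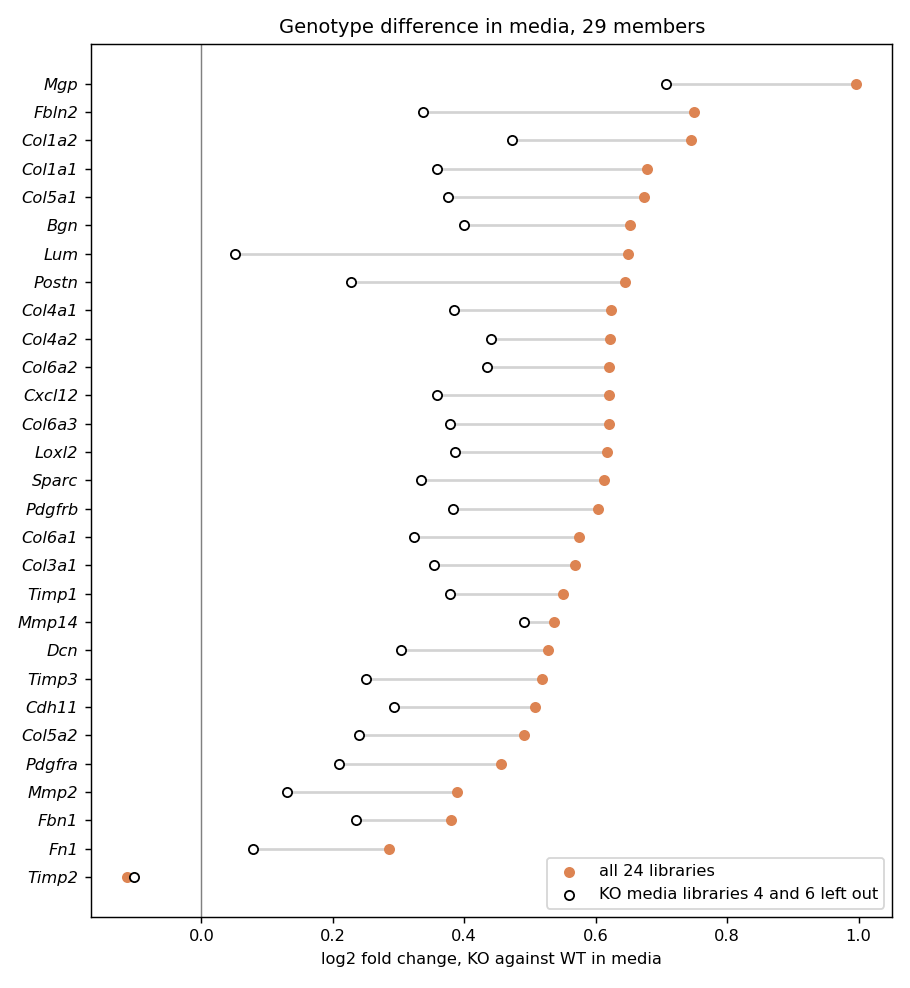
The log2 difference between knockout and wild-type cells in media for 29 members (horizontal axis), from all 24 libraries (orange) and without knockout media libraries 4 and 6 (open points). Every member but Timp2 is positive in both, and all of those positive values are smaller without the pair of libraries. The pair was the highest of its group for the collagens Col1a1, Col1a2 and Col3a1 summed, and leaving out high libraries lowers such values by itself. Has1, at 0 reads in wild-type and 1 in knockout cells, is left out.

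After Pam3, 9 members were called higher in knockout cells (Col1a2, Col3a1, Col4a1, Col6a1, Col6a3, Dcn, Bgn, Has1 and Cdh11) and 1 lower (Timp2), where 1.31% of all genes were called higher and 2.75% lower. Leaving out 1 library at a time gave between 3 and 11 higher, the fewest without knockout Pam3 library 3 or 4 (3 each), then 4 without knockout Pam3 library 1 and 5 without wild-type Pam3 library 4. Of all genes 0.797%, 0.729% and 1.08% were called higher without knockout Pam3 libraries 3, 4 and 1. Without wild-type Pam3 library 4 the share was 0.9%. Has1 lay between 2.10 and 4.72 CPM in wild-type and between 5.36 and 6.37 in knockout libraries, a log2 difference of 0.84 (SE 0.15) and no overlap. Timp2 lay between 323 and 391 CPM in wild-type and between 257 and 296 in knockout libraries, a log2 difference of -0.31 (SE 0.04) and no overlap. The Pam3 response was called different between genotypes for 0 members upward (0 also at an unadjusted p under 0.05 and by DESeq2) and 1 downward, where 0.173% of all genes were called upward and 0.589% downward. That member was Mmp14, with a response in knockout minus wild-type cells of -0.57 (SE 0.11). Its media groups did not overlap between genotypes and its Pam3 groups did. The contrasts of genotype and of Pam3 share libraries, and their values are set side by side only.

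Members varied between libraries of one group more than most genes of their level. The biological coefficient of variation of the series was 8.21% overall. It was 20.8% for Col1a1, 28.6% for Fbln2, 27.9% for Postn, 23.7% for Pdgfra and 22.7% for Col6a3. Divided by the value usual for genes of the same abundance, 28 of 30 members were above the 90th percentile of all tested genes. The others were Mmp14 with 7.54%, at the 55.7th percentile, and Timp2 with 5.45%, at the 26.7th.

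The members moved together between libraries of a group. The summed CPM of Col1a1, Col1a2 and Col3a1 was 63.5 in knockout media library 4 and 55.0 in library 6, against 32.7 to 42.7 in the 4 others of that group and 24.2 to 30.9 in wild-type media. After Pam3 it was 40.1 to 43.3 in knockout libraries 1, 3 and 4 and 25.8 to 29.2 in libraries 2, 5 and 6. In wild-type Pam3 cells it was 17.0 in library 5 and 21.7 to 28.1 in the others. Knockout media library 4 had the highest value of its group for 20 of 30 members, and wild-type Pam3 library 5 the lowest for 17. In the order of the sample identifiers in the labels, the last 3 libraries of knockout media (5, 4 and 6) and of knockout Pam3 (3, 4 and 1) were the 3 highest of their groups. The wild-type groups did not follow this. In wild-type Pam3 the last 3 (1, 6 and 5) were the 3 lowest, and in wild-type media the highest libraries, 5 and 4, were in places 5 and 1. What that order stands for is not stated, and its part in the result was not tested. Col1a1 had 0.576 to 0.810 reads per read of Col1a2 over all 24 libraries. Within a group the highest such ratio was 1.09 to 1.28 times the lowest. Correlated with the mean deviation of these 3 collagens from the group means, over 24 libraries that share their depth and composition, 19 of the 27 other members tested were in the top 1% of all genes. Cdh11 had r = 0.89 (rho 0.93, and r = 0.86 without the 2 libraries farthest from the median, knockout media 4 and wild-type Pam3 5), Fn1 0.89 (rho 0.87, then 0.86), Bgn 0.88 (rho 0.88, then 0.92) and Pdgfrb 0.69 (rho 0.70, then 0.62). Timp1 had r = 0.28 (0.44 without those 2 libraries), Mmp14 0.21 (then 0.06), Has1 0.04 (then 0.04) and Timp2 -0.57 (then -0.53). Has1 held 0 reads in 11 libraries, which limits its r. By r over all 24 libraries, Timp1, Mmp14, Has1 and Timp2 were the members least like the collagens, followed upward by Mgp at 0.38 and Mmp2 at 0.51. Of the first 4, Timp2 fell with Pam3 and the others rose. Without knockout media libraries 4 and 6, Mgp and Has1 were both at 0.16.

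**Figure D4:**
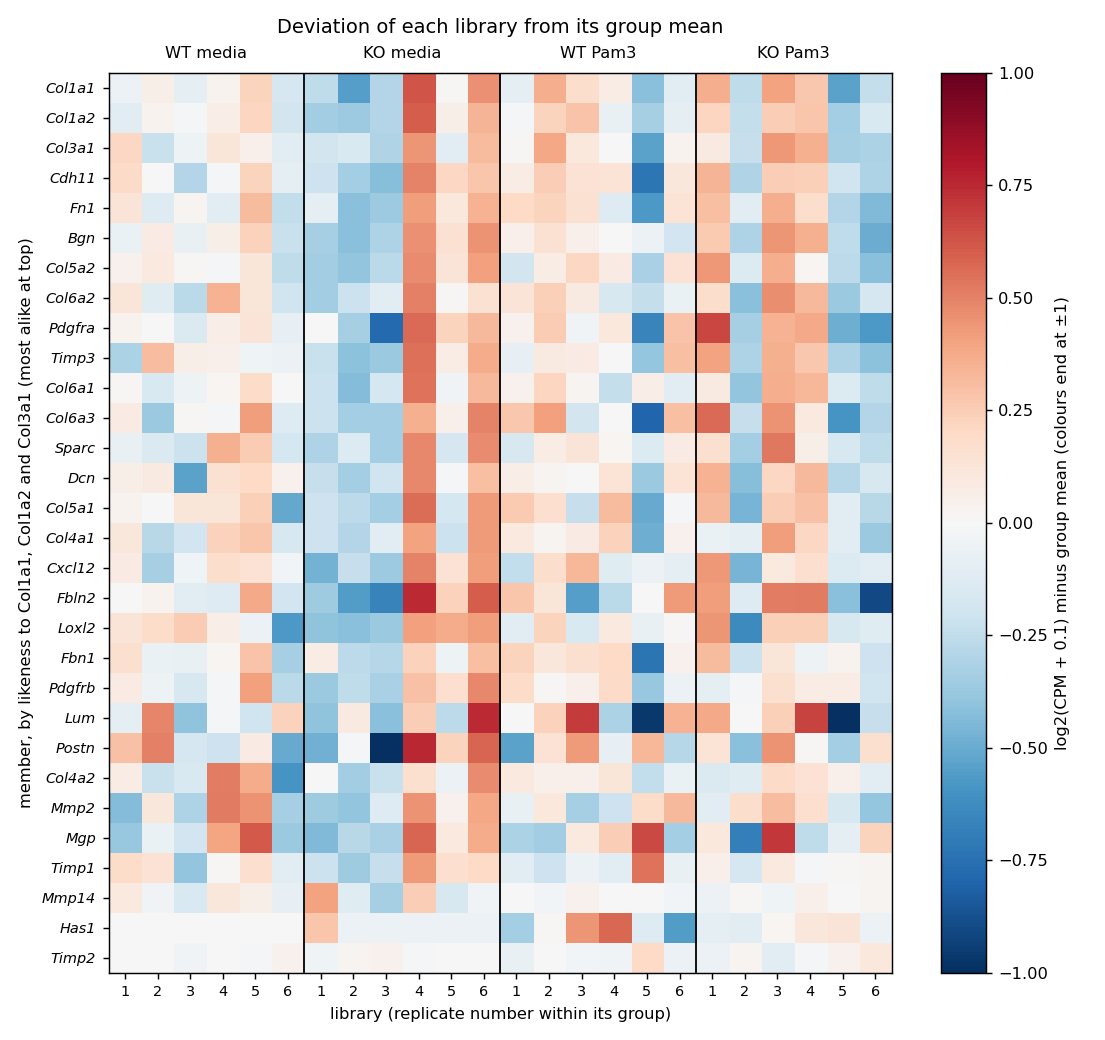
The deviation of each library from its group mean, as log2(CPM + 0.1), for 30 members (rows, ordered by their likeness to Col1a1, Col1a2 and Col3a1) in 24 libraries (columns, by group). Knockout media libraries 4 and 6 are high and wild-type Pam3 library 5 low for most rows, whereas the Timp2 row at the bottom is nearly flat.

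Outside the member list, the 12 genes most like the 3 collagens by the same measure were Ltbp2 (r = 0.92), Tead1, Aebp1, Tnc, Olfml3, Diaph2, Fstl1, Nedd4, Cyp1b1, Serpinh1, Nid1 and Grem1 (r = 0.84). Ltbp2, which binds to microfibrils, had group means of 6.49 CPM in wild-type media, 8.48 in knockout media, 5.47 in wild-type Pam3 and 8.22 in knockout Pam3. Diaph2, a formin, went the other way by genotype, with 56.8, 22.9, 153 and 70.6 CPM.

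Markers of other cell types were examined beside these values, and their part in the results was not tested. In bulk RNA, fewer cells of a type and less RNA per cell cannot be told apart. Of 12 fibroblast markers, Tcf21 was at 0 in all libraries and 7, Tcf21 included, were below 1 CPM in every library, while Gsn (173 to 491 CPM) and Pdpn (13.5 to 96.3 CPM) made up most of their sum of 259 to 515 CPM. The median sum of the 12 was 473 CPM in wild-type and 495 in knockout media, and 269 and 268 after Pam3. The 10 without Gsn and Pdpn, an exclusion chosen after their values were seen, summed to 5.80 to 7.71 CPM in wild-type media, 7.94 to 12.8 in knockout media, 5.21 to 5.97 in wild-type Pam3 and 6.91 to 10.8 in knockout Pam3. In knockout media the highest sums were those of libraries 6 and 4, the same libraries that were high for the collagens, and after Pam3 those of knockout libraries 1, 4 and 3. Prrx1, a mesenchymal transcription factor, was at 4.75 CPM in knockout media library 4 and 5.15 in library 6, against 2.66 to 4.01 in the 4 others. Of 8 markers of marrow reticular stroma 4 were below 1 CPM throughout, and Lepr, which defines that stroma, held 35 reads over the series. The 8 summed to 47.2 to 60.0 CPM in wild-type and 47.1 to 56.9 in knockout media. After Pam3 they summed to 11.8 to 17.8 CPM in wild-type and 14.3 to 20.4 in knockout libraries. Smooth muscle and pericyte markers summed to 6.19 to 7.90 CPM in wild-type media and 7.71 to 15.4 in knockout media, and 6 of 9 were below 1 CPM. After Pam3 they summed to 4.34 to 6.17 CPM in wild-type and 5.43 to 9.93 in knockout libraries. Osteoblast and chondrocyte markers summed to 2930 to 4263 CPM, nearly all of it Spp1, which macrophages also express, and 9 of 11 were below 1 CPM, with Bglap and Dmp1 at 0. Their median sum was 3571 CPM in wild-type and 3261 in knockout media, and 3993 and 3787 after Pam3. Adipocyte markers summed to 2625 to 4051 CPM, led by Lpl, while Adipoq held 29 reads over the series. The median adipocyte sum was 3140 CPM in wild-type and 2831 in knockout media, and 3815 and 3814 after Pam3. Endothelial markers summed to 87.0 to 183 CPM, led by Vwf and Kdr, with Tek at 37 reads over the series. The median endothelial sum was 170 CPM in wild-type and 159 in knockout media, and 128 and 117 after Pam3. The granulocyte list summed to 72.6 to 84.0 CPM in wild-type media and 93.7 to 109 in knockout media, without overlap, and to 45.1 to 67.1 and 54.8 to 62.9 after Pam3. The megakaryocyte list summed to 51.9 to 59.7 CPM in wild-type and 47.5 to 56.2 in knockout media, and after Pam3 to 113 to 202 in wild-type cells and a median of 108 in knockout cells. The lymphocyte list summed to 1.64 to 2.71 CPM.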

How the data were processed

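RNA-seq libraries (single-end, kit without strand marking) were aligned with GSNAP to GRCm38, per the submitters' processing notes. No version or annotation is stated in those notes. Per the file headers, the authors deposited raw counts of uniquely aligned reads per gene model and size-factor-adjusted RPKM. Counts were used for tests and RPKM only to order members within a group. Gene models were named by GENCODE M21, and 147 of 52636 had no symbol (0.00387% of reads).

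Counts were tested in R 4.3.3 with edgeR 4.0.16: filterByExpr (14435 genes kept), TMM scaling, a mean per group over 24 libraries, the quasi-likelihood F-test, and Benjamini-Hochberg adjustment over all tested genes with a threshold of 0.05. SE is the log2 fold change over the root of F. The procedure was tested on simulated data. Alternatives were RLE factors, library size alone, DESeq2 1.42.0, no filter, the compared groups alone, and each library, or knockout media 4 and 6, left out.

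The members and lists were chosen with earlier results of these data known. All 31 members are accounted for. Of the other matrix lists the genes named are taken from those with the smallest adjusted p, up to 4 per list and comparison. The 12 genes most like the collagens were named by Pearson's r of log2 CPM (prior count 2) deviations. Promoter sequences are from RefSeq (GRCm38.p6). The replicate numbers were given in accession order and pair nothing.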

Additional observations from a re-analysis of the deposited data

Results flagged for a closer look

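In groups of 6, the gap between an extreme library and its neighbour was compared with the range of the group for 119 pairs of member and group with at least 5 mean reads, and 10 exceeded Dixon's 95% critical value. Chance flags about 1 in 20 independent groups, but these pairs share libraries and the spread was among the values the members were chosen by, so the number is a description. Wild-type Pam3 library 5 accounted for 6: it was lowest for Cdh11 (1.70 CPM), Col4a1 (3.26 CPM), Dcn (3.76 CPM) and Fbn1 (2.57 CPM), and highest for Timp1 (23.9 CPM) and Timp2 (391 CPM). Wild-type media library 3 was lowest for Dcn (2.20 CPM) and Thy1 (0.0743 CPM). Wild-type media library 5 was highest for Fbln2 (2.18 CPM), and knockout media library 4 for Thy1 (0.276 CPM). The Pam3 response of Mmp14 in knockout minus wild-type cells was -0.57 on the log2 scale. That value holds the genotype differences by which members were chosen, so it is a description. For Mmp14 those log2 differences were 0.54 in media and -0.03 after Pam3.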

How the results depend on the processing

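With RLE factors 2 members fell with Pam3 in wild-type cells, in place of 4. Of all genes 43.1% fell in that fit, in place of 44.2%. With library size alone 16 fell in wild-type and 18 in knockout cells, beside 62.7% and 61.9% of all genes. In that fit 5 values turned from the other side of 0 to a call below it: Col3a1 (-0.52), Col6a2 (-0.42) and Cxcl12 (-0.43) in wild-type and Col6a1 (-0.46) and Cdh11 (-0.39) in knockout cells. That setting keeps the composition shift that TMM removes. DESeq2 called 2 members lower in the difference of responses, in place of 1. It called 1.58% of all genes lower there, in place of 0.589%. With the compared groups alone 8 fell with Pam3 in wild-type cells, beside 43.3% of all genes. In media 1 was then lower in knockout cells, beside 3.81% of all genes. After Pam3 5 were then higher in knockout cells, beside 0.486% of all genes. Without knockout media libraries 4 and 6, 3 fell with Pam3 in knockout cells and 1 was higher in knockout cells in media. The shares of all genes were 43.4% and 1.04%.

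Leaving out 1 library at a time gave 10 to 11 members higher and 2 to 5 lower with Pam3 in wild-type cells (2 without wild-type Pam3 library 1 or 6 or media library 4 or 5), 10 to 11 and 6 to 12 in knockout cells, 3 to 23 higher and 0 to 1 lower in knockout cells in media, 3 to 11 and 1 to 1 after Pam3, and 0 to 0 upward and 1 to 2 downward for the difference of responses. Of all genes 43.7% to 44.1% fell in the wild-type fits that gave 2 lower. The 2 downward came without wild-type Pam3 library 5, where 3.03% of all genes were called downward. The cause of these changes was not tested. No paired analysis was run, because the labels carry sample identifiers but do not state that their order pairs libraries between groups. If libraries were paired, the tests here did not take that into account. Depth limits Lum, Thy1 and untreated Has1, with 3 reads in a library standing for 0.0627 to 0.111 CPM.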
